A study of Mus musculus with 2 samples.

Results

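In nuclear RNA of macrophages stimulated again with Lipid A, 60 genes had a large part of their transcript signal on isoforms that the annotation classes as targets of nonsense-mediated decay. They include the interferon-induced GTPase gene Mx1, the G-protein regulator Rgs1, the RNA helicase gene Ddx5, the guanylate-binding protein genes Gbp4 and Gbp6, and the lysosomal protease gene Ctsh. Members were chosen by measured RSEM values. A gene was a member when it had a protein-coding transcript and a level of 10 TPM (a read estimate divided by transcript length and scaled to a fixed total over all transcripts) or more in both libraries. In addition, 30% or more of its summed transcript TPM had to lie on decay transcripts in both libraries, and 50% or less on retained-intron transcripts in at least 1. Genes whose symbols start with Rpl, Rps, Srsf, Hnrnp or Clk were left out. The 60 members are 1.83% of the 3282 protein-coding genes that reached 10 TPM in both libraries. They are 5.52% of the 1087 of these with an annotated decay transcript. In all, 21901 genes had a protein-coding transcript.

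The study sequenced total RNA, depleted of ribosomal RNA, from the nuclei of mouse bone marrow-derived macrophages (BMDM) of the strain C57BL/6J; 1 label field calls the RNA nucleoplasmic and another nuclear. BMDM are primary cells grown from marrow. Lipid A, the lipid anchor of endotoxin and a ligand of TLR4, was given at 100 ng/ml for 12 h, removed for 12 h, and given again at 100 ng/ml for 60 min. Both libraries, replicates 1 and 2, belong to this 1 group, with 1 µg of RNA put into replicate 1 and 500 ng into replicate 2. No untreated, cytoplasmic or decay-inhibited sample is part of the data used here, so no contrast between conditions exists and no test was made. The labels give both libraries the same donor identifier and name no separate animals, so gaps between them may be technical; sex and age were not recorded. RNA input and replicate cannot be told apart.

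Nonsense-mediated decay is the pathway that degrades messages whose reading frame ends too early. During translation in the cytoplasm, a ribosome that stops well upstream of a remaining exon junction complex triggers the recruitment of UPF1 and the decay of the message. Splicing that adds a stop codon can therefore lower the amount of a protein, and many RNA-binding proteins limit their own production in this way. The class "nonsense_mediated_decay" in GENCODE is assigned from transcript structure, a stop codon well upstream of the last exon junction. It is an annotation, and decay itself was not measured in these libraries.

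The libraries held 23630328 expected counts on genes in replicate 1 and 15687634 in replicate 2. Members held 229639 of these in replicate 1 and 136536 in replicate 2, and the leading decay transcript of a member, the decay transcript of highest mean TPM, had a median of 619 counts in replicate 1 and 367 in replicate 2. The lowest such count was 31.2 in replicate 1 and 30.4 in replicate 2. All 8 macrophage markers were at 1 TPM or more in both libraries, with sums of 4150 TPM and 2422 TPM in replicates 1 and 2. None of 24 markers of other blood, stromal and endothelial cells reached 1 TPM in both libraries; their sums were 4.06 TPM and 2.32 TPM, and Elane, Cd3e, Nkg7 and Cpa3 were among those listed at 0. The nuclear RNA Malat1 stood at 20270 and 18932 TPM in replicates 1 and 2.

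The reading frames of the highest members show how such isoforms differ from coding ones. Each line below gives the last 30 bases of a reading frame, from the GENCODE M21 transcript sequences, 5′ to 3′ in the sense of the gene, with the stop codon in capitals. The decay isoform comes before the coding isoform it is set against, the complete protein-coding transcript of highest TPM. The 6 members of highest TPM are shown because they carry most of the members' summed decay-transcript TPM in each library; Il4ra and Prpf4b were added after their values were seen, Il4ra for an added exon and Prpf4b for an intron that follows an unchanged stop codon.
Mx1-205 (decay): atctgtagatggtccaaactgccttcgTAA
Mx1-202 (coding): cggcagaagcttgccaaattctccgatTAA
Rgs1-204 (decay): aagcagaaaaaaaggccaaagactttaTAA
Rgs1-208 (coding): aatgaccttcaggcaaatactttaaagTGA
Ddx5-208 (decay): accgatgtggcctccagagggctaggtTAG
Ddx5-201 (coding): tatcccatgccaacagggtattctcaaTAA
Gbp6-203 (decay): aactgtttggcgggacagaatcacgggTGA
Gbp6-201 (coding): taccttgtccgttatctaaagcatttaTGA
Ctsh-202 (decay): tttaagtcatggatgaaacagtggcatTGA
Ctsh-201 (coding): tgtgcctcctatcccattcctcaggtaTAA
Oas1g-203 (decay): cactgtgggcttcatctgtacagagtgTAG
Oas1g-201 (coding): gaggagaactggacatgtatcctgctgTGA
Il4ra-205 (decay): tggtacaacccaagtaatgaaaatctgTGA
Il4ra-201 (coding): gtgggcgccctgggcattgctgtttctTAG
Prpf4b-208 (decay): cagcatgcattcatccaggaaaaaattTAA
Prpf4b-201 (coding): cagcatgcattcatccaggaaaaaattTAA

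Positions below are in mm10. The stop codon of Mx1-205 lies at chr16:97451528-97451530 on the minus strand, in exon 9 of 11, after 309 codons and 311 bases upstream of the last exon junction. That of Rgs1-204 lies at chr1:144248605-144248607 on the minus strand, in exon 2 of 5, after 46 codons, against 209 codons in the coding isoform. Rgs1-204 uses another splice site, and its frame meets a stop codon 4 bases after it parts from the coding frame, counting the stop codon itself. In Ddx5-208 an intron of the coding isoform is kept, and the stop codon at chr11:106783954-106783956 on the minus strand follows 5 bases after the frames part, after 406 codons against 615. Gbp6-203 skips an exon and stops at chr5:105280560-105280562 on the minus strand, after 62 codons against 611. Of its 4173 bases, 1709 lie outside the exons of coding transcripts, so its reads need not mark the skipped exon. It shares 1587 bases with Gm43302, a gene on the same strand. Ctsh-202 also skips an exon, and its frame ends at chr9:90062723-90062725 on the plus strand, after 41 codons against 333. Oas1g-203 uses another splice site and stops at chr5:120881837-120881839 on the minus strand, after 234 codons against 367. Il4ra-205 adds an exon of 114 bases, with a stop codon at chr7:125571951-125571953 on the plus strand, 20 bases after the frames part, so that it encodes 230 codons against 810. As background, mouse soluble interleukin-4 receptor is known to be made from a message with an added exon that carries a stop codon. Prpf4b-208 keeps the coding stop codon, at chr13:34901594-34901596 on the plus strand, and has 1 exon junction 535 bases after it.

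**Figure D1:**
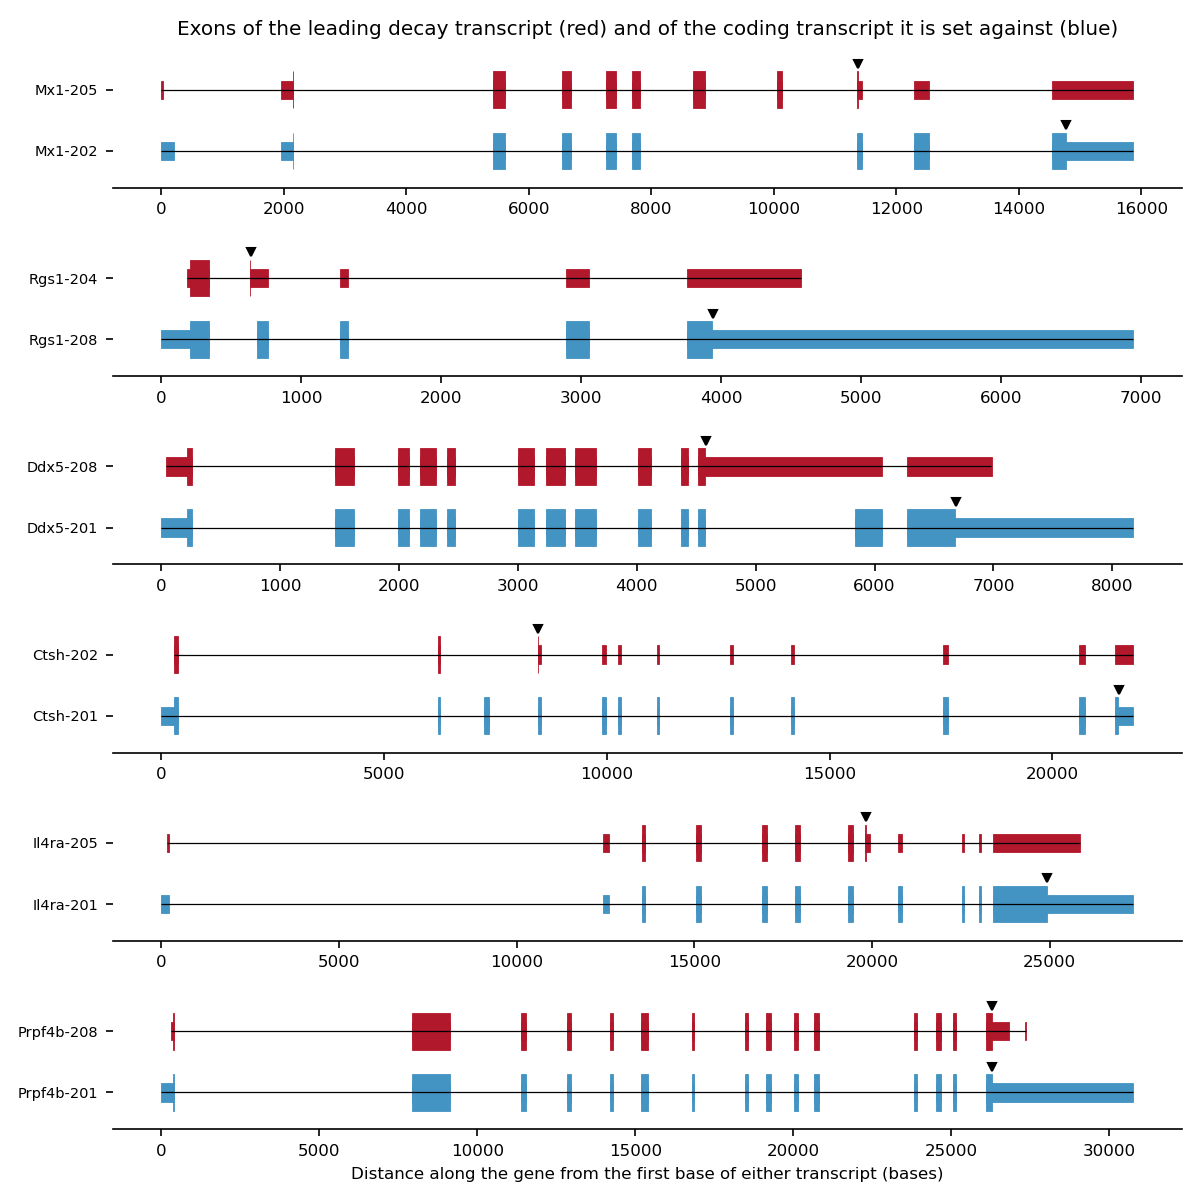
Exons of the leading decay transcript (red, above) and of the coding transcript it is set against (blue, below) for Mx1, Rgs1, Ddx5, Ctsh, Il4ra and Prpf4b, drawn 5′ to 3′ with distance along the gene in bases on the x axis; tall boxes are reading frame, low boxes untranslated exon, and triangles stop codons. The decay stop codon lies upstream of the coding one in each gene but Prpf4b, where both share it and the decay transcript has 1 more exon.

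The decay share of a gene, the percentage of its transcript TPM on decay transcripts, had a median over members of 43.2% in replicate 1 and 48.1% in replicate 2, from 30.05% to 75.6% in replicate 1 and from 30.5% to 79.4% in replicate 2. The members were selected on these shares, so they are a description. Over the other 1027 genes with a decay transcript, the median share was 2.66% in replicate 1 and 2.38% in replicate 2. Coding transcripts held a median of 33.7% and 35.2% of member TPM in replicates 1 and 2, against 64.8% and 60.3% in the other genes. Retained-intron transcripts, on which the rule sets a ceiling, held 11.1% and 10.3% in members, against 22.6% and 24.9% in the other genes, and were at 0 in both libraries in 20 members, or 33.3%, against 13.4% of the other genes, a difference that the rule favours. Summed over members, decay transcripts made up 52.4% of TPM in replicate 1 and 53.6% in replicate 2, against 6.79% and 7.34% over the other genes. The members thus held 26.9% of all decay-transcript TPM in replicate 1 and 23.7% in replicate 2. The median gene level of members in replicates 1 and 2 was 27.5 and 21.1 TPM, against 30.5 and 21.9 TPM in the other genes.

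At the edge of the rule stood Cyb5r1, with a decay share of 30.05% in replicate 1 and 38.0% in replicate 2, Akap8 with 30.3% and 34.6%, and Sra1 with 38.1% and 30.5%. Just outside it stood Vps13c with 29.8% and 31.7%, Tpcn2 with 29.98% and 29.8%, and Ociad1 with 29.8% and 36.3%. Except in Tpcn2, each of these genes differed more between its libraries than its lower share differed from 30%. The symbol filter removed Hnrnpd, Rpsa, Rpl12 and Hnrnpa1, and the retained-intron ceiling removed Hyi, Rptor, Ccnl1 and Oasl2; these 8 genes met the other conditions.

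**Figure D2:**
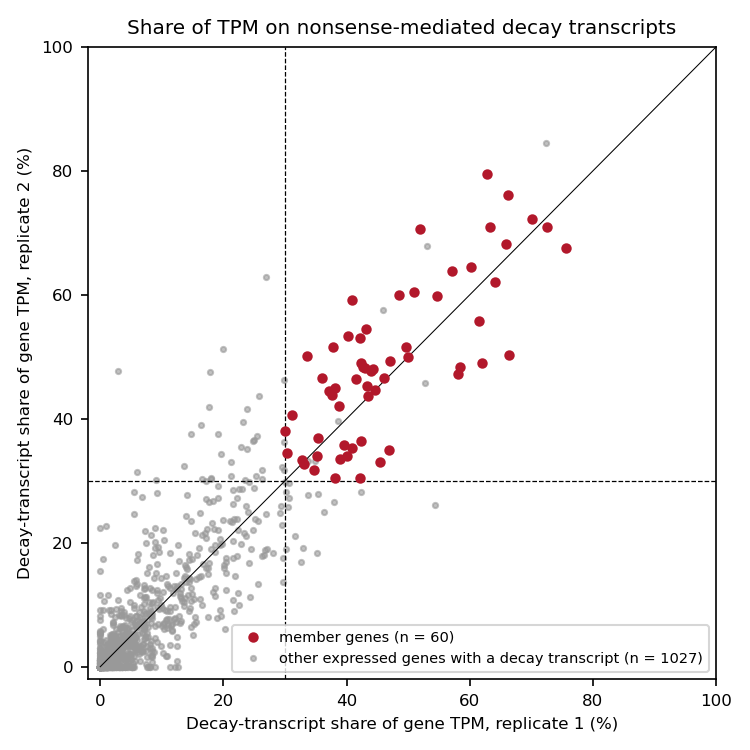
Decay share of gene TPM (%) in replicate 1 (x axis) and replicate 2 (y axis), 1 point per gene, for the 60 members (red) and the other 1027 expressed genes with a decay transcript (grey); dashed lines mark 30% and the solid line equal shares. Most grey points lie near 0, and the 8 grey points above 30% in both libraries are the genes left out by symbol or by the retained-intron ceiling.

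A group of 6 members acts in innate defence, with median decay shares of 49.0% in replicate 1 and 53.6% in replicate 2. Mx1, an interferon-induced GTPase that restricts viruses and is known to lack coding exons in C57BL/6 mice, had the highest level of all members in replicate 1, at 732 TPM, and stood at 204 TPM in replicate 2. Its decay shares in replicates 1 and 2 were 65.9% and 68.2%, and 3 annotated decay transcripts shared it. Oas1g, of the oligoadenylate synthetase family that senses double-stranded RNA, had 129 and 73.6 TPM in replicates 1 and 2, with decay shares of 61.5% and 55.7%. The guanylate-binding protein genes encode interferon-induced GTPases that attack vacuoles holding pathogens. Gbp6 had 266 TPM and 184 TPM in replicates 1 and 2, and its decay share was 33.6% in replicate 1 but 50.1% in replicate 2. Gbp4 had 93.9 TPM and 43.7 TPM, with shares of 54.6% and 59.8%. Ifi35, an interferon-induced protein gene, had shares of 37.7% and 51.6%, and Nlrp1b, an inflammasome sensor gene, 43.4% and 43.7%. Oas1g, Gbp4 and Gbp6 belong to clusters of near-identical genes, so reads could have been split among paralogs. H2-Eb1, Ppia and Eef1b2, described below, carry the same uncertainty through related genes or pseudogenes.

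Another 6 members encode immune receptors, regulators of receptor signalling and a protease. Rgs1, which shortens G-protein signalling downstream of chemokine receptors, had 457 and 303 TPM in replicates 1 and 2. Its decay shares were 49.7% and 51.7%, and coding transcripts held only 3.35% on average over both libraries, with 46.0% on retained-intron transcripts. By expected counts the decay share of Rgs1 was lower, 35.7% and 29.4%, and a decay transcript was highest in neither library. Ctsh, which encodes the lysosomal cysteine protease cathepsin H, had 229 and 150.2 TPM in replicates 1 and 2. Its decay shares were 57.2% and 63.8%. Il4ra, the receptor chain shared by interleukin-4 and interleukin-13, had 63.2 and 24.7 TPM in replicates 1 and 2, with decay shares of 61.9% and 49.0%. The only decay transcript of Il4ra had 39.2 TPM and 12.1 TPM in replicates 1 and 2, and its coding transcript Il4ra-201 had 19.7 TPM and 10.4 TPM. Both libraries thus had the isoform with the added exon above the coding one, but the deposited intervals, of 10.1 to 13.1 TPM for the decay isoform and 8.86 to 11.0 TPM for the coding one, overlapped in replicate 2. H2-Eb1, the beta chain of an MHC class II molecule, had shares of 51.9% and 70.7%, the widest gap between libraries among members. The myeloid receptor gene Cd300c2 had 48.5% and 60.0%, and Gpsm3, a modulator of G-protein signalling, 44.6% and 44.7%.

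In 8 members the product binds or processes RNA. Ddx5, a DEAD-box RNA helicase gene with roles in splicing and transcription, had 377 and 335 TPM in replicates 1 and 2, with decay shares of 64.1% and 62.2%. Its decay transcript Ddx5-208 had 232 and 152 TPM, while Ddx5-205 had 9.76 and 56.6 TPM. Ddx5-208 has no junction outside the coding transcripts, and 1265 of its bases lie outside their exons. Whether its reads came from unspliced Ddx5 RNA, which nuclear RNA can hold, was not tested. Tardbp, which encodes the RNA-binding protein TDP-43 and is known to limit its own message through splicing in the 3′ UTR, had 84.5 TPM and 56.3 TPM in replicates 1 and 2. Its decay shares were 40.1% and 33.9%. Of its 10 annotated decay transcripts, 4 were at 0 in both libraries, and most of the signal lay on Tardbp-208, with 13.0 and 15.6 TPM, and Tardbp-228, with 18.9 and 2.72 TPM. By expected counts, which are not divided by transcript length as TPM is, the decay share of Tardbp averaged 14.8% over both libraries, against 37.01% by TPM. Paxbp1, a gene for a protein that binds PAX factors, had shares of 42.6% and 48.4%. Zfp207, a zinc finger gene, had 43.1% and 48.2%. Its decay transcript Zfp207-207 had 9.72 and 10.34 TPM in replicates 1 and 2, and its coding transcript Zfp207-208 had the same values. These transcripts were also equal in the second quantification described below. This part of the share may therefore be an even division of shared reads. Prpf4b, a kinase of pre-mRNA processing, had nearly equal shares of 46.1% and 46.7%. The splicing-related gene Scaf11 had 34.7% and 31.7%, the ribosomal RNA processing gene Rrp7a 40.9% and 59.1%, and Alkbh1, a dioxygenase gene of the AlkB family, 38.9% and 33.5%. The mean share of Rrp7a was 50.03% by TPM and 12.1% by expected counts. It rests on few reads, with 31.2 counts on its leading decay transcript in replicate 1 and 43.2 in replicate 2.

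Transcription and chromatin genes numbered 7 and had the lowest median shares of the role groups in both libraries, 36.0% in replicate 1 and 34.0% in replicate 2. They are Elk4, an ETS factor that works with serum response factor, the bZIP gene Crebzf, the methyl-CpG-binding domain gene Mbd6, Smarca2, an ATPase of the SWI/SNF remodeller, Sra1, the gene of the steroid receptor RNA activator, Akap8, a nuclear anchor of protein kinase A, and the zinc finger gene Zfp950. Their shares ran from 30.3% to 47.1% in replicate 1 and from 30.5% to 49.4% in replicate 2. Their levels were low, from 11.1 to 31.9 TPM in replicate 1 and from 11.4 to 21.6 TPM in replicate 2. Genes of ubiquitin and SUMO conjugation numbered 4. The ubiquitin ligase gene Rnf114 had shares of 66.3% in replicate 1 and 76.1% in replicate 2, and the SUMO protease gene Senp2 63.2% and 70.9%. The ligase genes Rnf14 and Arih2 had lower shares, with 41.0% and 35.3% in Rnf14 and 42.4% and 48.9% in Arih2.

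The largest role group, with 14 members, covers lipid synthesis, secretion and membrane traffic, at gene levels of 11.1 to 44.8 TPM in replicate 1 and 10.4 to 31.7 TPM in replicate 2. Cdipt, the phosphatidylinositol synthase gene, had the highest mean share of all members, with 72.6% in replicate 1 and 70.9% in replicate 2. The Golgi protein gene Tmf1 had 70.1% and 72.2%, and Mtmr12, of the myotubularin family, 60.2% and 64.5%. The glycoprotein folding sensor gene Uggt1 had 58.3% and 48.4%. The others were Pgs1 and Lpcat2, which act in phospholipid synthesis, the traffic genes Uso1, Gga1, Cyth2 and Rabggtb, the signal peptidase gene Spcs2, the co-chaperone gene Dnajc5, the synaptotagmin gene Syt8, and Ttpal. Shares over the 14 ran from 37.1% to 72.6% in replicate 1 and from 33.0% to 72.2% in replicate 2.

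In metabolism, folding, translation and dephosphorylation there were 7 members. Ndufa3, a subunit of respiratory complex I, had a level of 19.2 TPM in replicate 1 and 24.5 TPM in replicate 2, with shares of 62.9% and 79.4%. Its leading decay transcript is only 343 bases long and had 44.2 counts in replicate 1 and 58.5 in replicate 2; TPM of RNAs near the fragment length is unstable. The mean share of Ndufa3 was 71.2% by TPM but 36.2% by the deposited posterior mean TPM and 50.3% by expected counts. Ppia, the gene of the prolyl isomerase cyclophilin A, had 85.1 TPM and 46.8 TPM in replicates 1 and 2, with shares of 44.3% and 48.1%. By expected counts its mean share was 24.96%, and a decay transcript was highest in neither library. The translation elongation factor gene Eef1b2 had 42.2% and 53.1%, and the ATP synthase gene Atp5f1 40.3% and 53.3%. Ppp1cc, a catalytic subunit of protein phosphatase 1, Ahcyl1 and Cyb5r1 were below 41% in both libraries. The remaining 8 members were A630001G21Rik, Mroh1, Pcnp, Gm38394, Ostf1, Stard9, Pcnx and 0610037L13Rik. Pcnp, which encodes a nuclear protein with a PEST sequence, had the highest share of any member in replicate 1, at 75.6%, and 67.6% in replicate 2. Pcnx, the pecanex gene, had 66.3% in replicate 1 and a lower 50.3% in replicate 2. Shares over these 8 ran from 32.7% to 75.6% in replicate 1 and from 33.4% to 67.6% in replicate 2. The decay and coding transcripts of Gm38394 have the same exons, so its shares of 50% in both libraries are an even division of reads that cannot be told apart; its exons also overlap those of Zc3h11a and Zbed6.

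**Figure D3:**
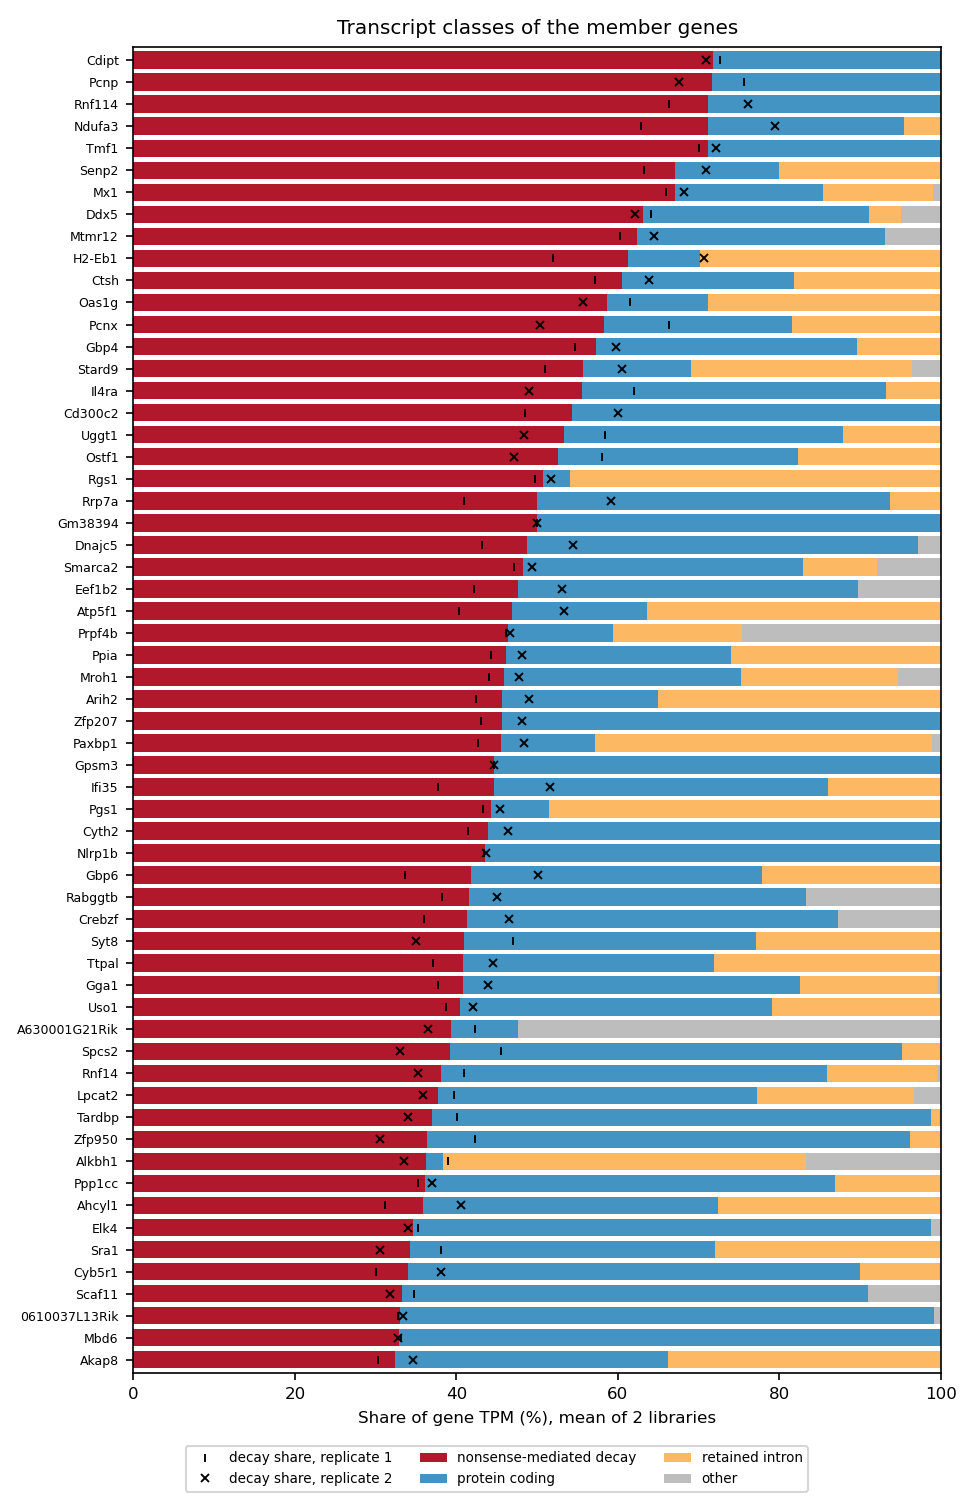
Share of gene TPM (%, x axis) on decay, protein-coding, retained-intron and other transcripts for each of the 60 members (y axis), as the mean of both libraries, with the decay share of each library marked. Cdipt, Pcnp, Rnf114, Ndufa3 and Tmf1 are above 70% on average, and Akap8, Mbd6 and 0610037L13Rik are near the 30% threshold.

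In 35 of 60 members the transcript of highest TPM was a decay transcript in both libraries, and in 12 in neither. Over all 1087 genes with a decay transcript this held for 4.88%; the rule used these values, so nothing is read from the difference. The deposited TPM intervals give the uncertainty of dividing reads among isoforms within 1 library, at a level that is not stated. The interval of the leading decay transcript lay wholly above that of the leading coding transcript in both libraries in 24 members. This held for 3.40% of the 1087 genes, members included. The rule used the TPM of the same transcripts, so nothing is read from this difference either. For Rgs1 the decay interval ran from 173 to 187 TPM in replicate 1 and from 119 to 131 TPM in replicate 2. The interval of Rgs1-208, its leading coding transcript, ran from 12.955 to 14.996 TPM in replicate 1 and from 9.03 to 10.9 TPM in replicate 2. For Ddx5 the decay intervals were 218 to 227 TPM and 141 to 149 TPM, and the coding intervals 89.4 to 96.2 TPM and 81.8 to 88.6 TPM, in replicates 1 and 2. Gbp6 changed order between the libraries: its decay interval was 82.8 to 87.6 TPM in replicate 1, below the coding interval of 110 to 118 TPM, and 85.9 to 90.5 TPM in replicate 2, above 45.5 to 51.4 TPM. By kallisto, a second quantification described below, Gbp6-203 had 22.7 and 44.0 TPM in replicates 1 and 2, and Gbp6-201 had 37.3 and 27.97 TPM, so the order changed there too. Levels of all genes shifted between libraries in opposite directions by RSEM and kallisto, as given below, so the sizes of change are not compared. For Zfp207 the interval of the leading coding transcript ran from 0.590 to 17.7 TPM in replicate 1 and spanned the decay interval of 10.9 to 12.4 TPM.

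**Figure D4:**
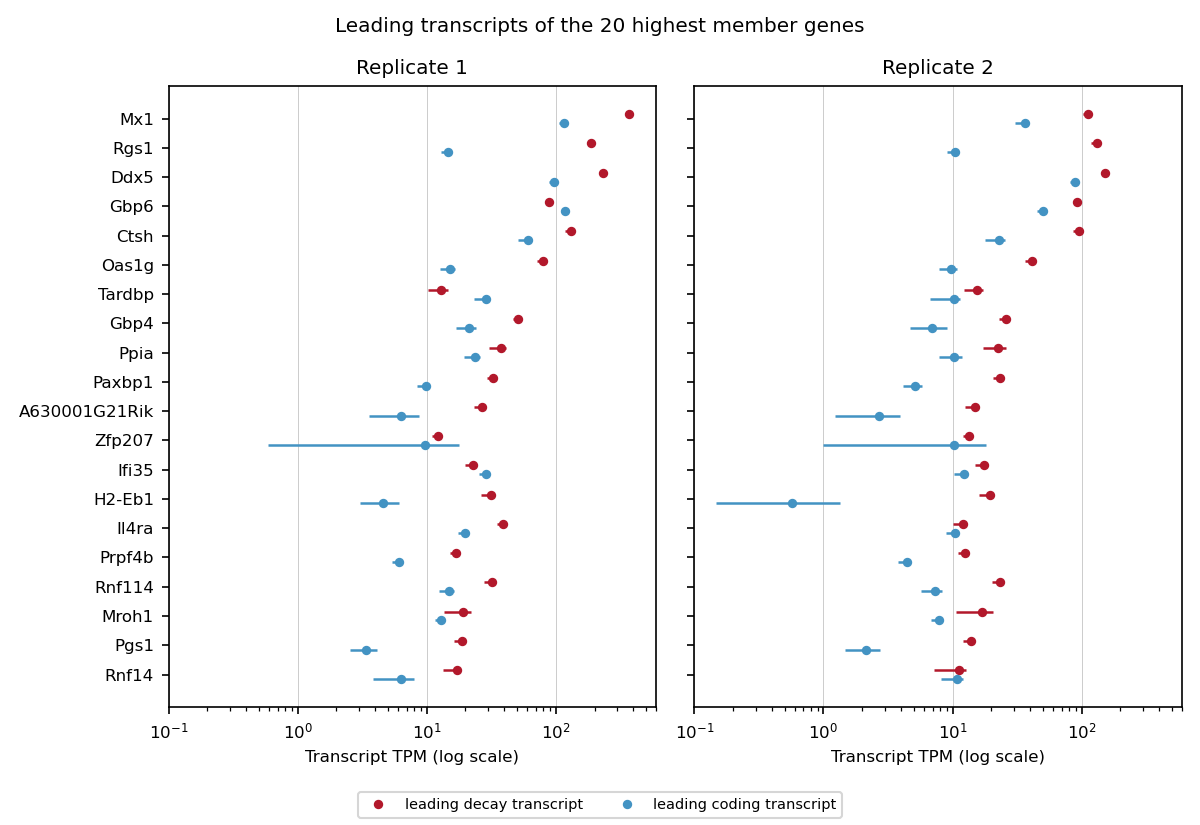
TPM (log scale) of the leading decay transcript (red) and the leading coding transcript (blue) of the 20 members of highest mean level, in replicate 1 (left) and replicate 2 (right); points are TPM and lines the deposited intervals, which can lie below the TPM. Decay transcripts lie above coding ones in both libraries for Mx1, Rgs1, Ddx5 and Ctsh, and Gbp6 changes order.

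The leading decay transcripts of most members differed from the coding transcript they were set against in their splice sites, exons and introns. None of the kinds of difference counted was found in 3 members, Gm38394, Elk4 and Zfp950, or 5%, against 5.65% of the other genes. Another splice site of an exon was used in 30 of 60 members, or 50%, against 41.7% of the other 1027 genes. An exon was skipped in 16 members and added in 15, against 33.6% and 31.8% of the other genes. An intron was kept in 3 members, Ddx5, Zfp207 and Ifi35, or 5%, against 3.89% of the other genes. An intron downstream of the coding stop codon was spliced out in 5 members, Tardbp, Zfp207, Prpf4b, Rrp7a and Crebzf, or 8.33%, against 2.73% of the other genes; a transcript may count under more than 1 kind. In 27 members, or 45%, against 40.4% of the other genes, the decay transcript held no base outside the exons of the gene's coding transcripts, so it can be recognised only by reads across a junction, or by none. In 7 members, or 11.7%, against 8.47% of the other genes, it held over 500 such bases. These were Ddx5, Gbp6, Zfp207, Cyb5r1, Elk4, Zfp950 and 0610037L13Rik, where reads in that stretch can count as decay signal whatever the splicing elsewhere. Part of the stretch can also lie in other non-coding transcripts, which can take such reads. In Ddx5, 729 of the 1265 bases lay in no other transcript of the gene. A total of 12 members, or 20.0%, had neither a base nor a junction found in no other transcript of the gene, against 8.86% of the other genes. These were Tardbp, Paxbp1, Prpf4b, Pgs1, Rnf14, Arih2, Gm38394, Ndufa3, Ppp1cc, Syt8, Crebzf and Alkbh1. The TPM of their leading decay transcript rests on the model that divides shared reads. Of these 12, Rnf14 and Gm38394 also had no junction outside the coding transcripts, while the others had at least 1.

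Members had a median of 2 annotated decay transcripts, against 1 in the other genes, and of 2 coding transcripts, against 3. More than 3 decay transcripts were annotated in 13 members, or 21.7%, against 6.23% of the other genes, and the share sums over them. The leading decay transcripts were longer in members, with a median of 2063 bases against 1117 in the other genes. Their reading frames, those annotated as incomplete at the start included, made up a median of 34.9% of the coding frame, against 21.7%. The leading decay transcripts had the highest transcript support level of the annotation in 27 members, or 45%, against 27.7%. In the other genes the leading decay transcript had a median of only 19.0 counts in replicate 1 and 10.5 in replicate 2. The structures set beside those of members, here and above, thus include many transcripts with little or no signal. The distance from stop codon to last exon junction had a median of 346.5 bases in members and 356 in the other genes, and it is part of how the class is assigned; the shortest distance among members was 52 bases, in Ttpal. In 17 members, or 28.3%, against 32.0% of the other genes, the transcript was annotated as incomplete at its start, so its frame begins inside the gene. In 39 members, or 65%, against 59.7%, it shared the start codon of the coding isoform. Of these, 37 had frames that part, with a median of 103 codons in the decay isoform and 333 in the coding isoform, and the frame ended a median of 54 bases after parting. In 4 members (Rgs1, Ddx5, Gbp6, Gpsm3) it ended within 5 bases. The decay frames ended in TGA in 17 cases, TAA in 12 and TAG in 8, and the coding frames of the same genes in TGA in 17, TAA in 11 and TAG in 9.

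The second quantification, in kallisto format, was made from the same reads and so is a description of method, not a replicate. Its median decay share over members was 41.4% in replicate 1 and 43.6% in replicate 2, against 5.73% and 5.47% in the other genes. A share of 30% or more in both libraries was kept by 43 of 60 members, and 7.18% of all 1087 genes had one. The 10 members under 30% in both libraries by kallisto were A630001G21Rik, Mroh1, Rnf14, Mbd6, Elk4, Ahcyl1, Gga1, Ttpal, Syt8 and Sra1. The highest transcript was a decay transcript in both libraries in 27 members, against 4.51% of the 1087 genes, and in 25 members by both quantifications. The share was lower by kallisto in 44 members, or 73.3%, against 27.9% of the other genes; members were chosen for high RSEM shares, so nothing is read from this difference. The mean share was over 1.5 times lower by kallisto in 12 members and over 1.5 times higher in none. Expected counts from RSEM gave a mean share over 1.5 times lower in 9 members (Rgs1, Tardbp, Ppia, Mroh1, Arih2, Elk4, Ppp1cc, Rrp7a, Crebzf) and over 1.5 times higher in 2 (Ttpal, 0610037L13Rik). The widest gaps of mean shares were those of Syt8, at 41.0% by RSEM and 13.4% by kallisto, Mx1 at 67.0% and 41.1%, Gga1 at 40.8% and 17.4%, Sra1 at 34.3% and 10.9%, and Uggt1 at 53.4% and 32.0%. In the other direction stood Stard9, a kinesin gene, at 55.7% and 70.9%, and Nlrp1b at 43.6% and 58.3%.

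For Mx1 the quantifications also placed the signal on different decay transcripts. By RSEM, Mx1-205, whose stop codon is shown above, had 373 and 113 TPM in replicates 1 and 2, and Mx1-203 had 53.3 TPM and 11.6 TPM. By kallisto, Mx1-205 had 29.5 TPM and 1.66 TPM, and Mx1-203 had 84.0 TPM and 50.3 TPM. Mx1-205 was thus above Mx1-203 by RSEM and below it by kallisto in both libraries. Only this order is compared, since TPM differed in scale between the quantifications. In replicate 1, Ddx5-208 had 232 TPM by RSEM and 70.7 TPM by kallisto, and Rgs1-204 had 188 and 51.1 TPM. Both quantifications put a decay transcript highest in Mx1. The leading decay transcript differed between the quantifications in 5 of 60 members, Mx1, Crebzf, Cyth2, Alkbh1 and Rabggtb. For Ddx5, Rgs1 and Senp2 the mean shares by both quantifications were within 5 points of each other. Ddx5 had 64.1% and 62.2% by RSEM in replicates 1 and 2, and 69.1% and 65.6% by kallisto.

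**Figure D5:**
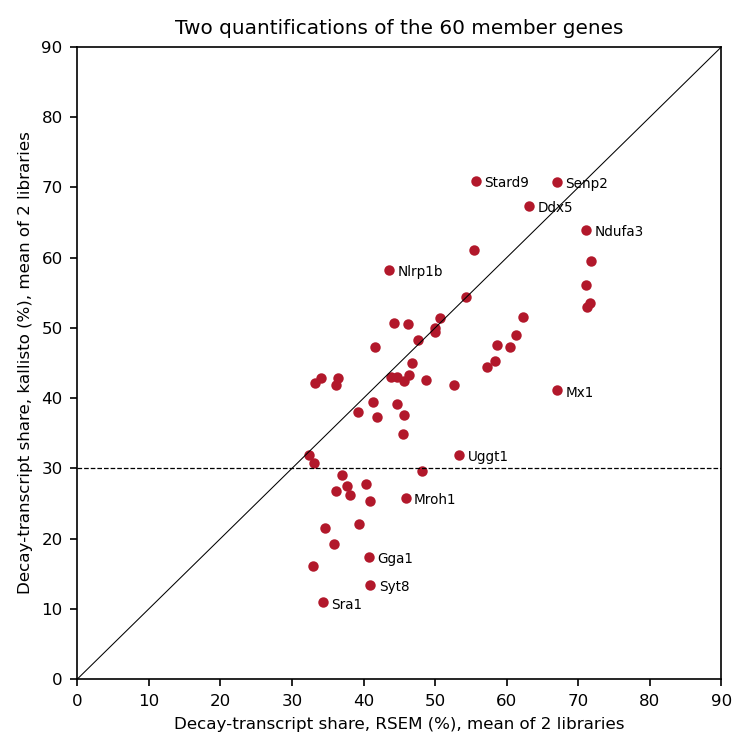
Decay share (%) by RSEM (x axis) and by kallisto (y axis), as the mean of both libraries, 1 point per member; the solid line marks equal shares and the dashed line 30% by kallisto. Most points lie under the solid line, Syt8, Mx1, Gga1, Sra1 and Uggt1 farthest, and Stard9 and Nlrp1b lie above it.

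Between libraries, the decay share was higher in replicate 2 in 39 of 60 members, or 65%, against 37.1% of the other 1027 genes, many of which are at 0 in a library. It differed by more than 10 points in 16, or 26.7%, against 7.79% of the other genes, whose median share is far lower. The widest gaps were those of H2-Eb1, Rrp7a, Ndufa3 and Gbp6, all higher in replicate 2, and of Pcnx, lower in replicate 2. The median log2 ratio of gene TPM, replicate 2 over replicate 1, was -0.47 over all expressed protein-coding genes, and 0.36 by kallisto. Relative to that shift, the median of members was -0.01, from -1.37 for Mx1 to 0.92 for Zfp950. Mx1 was the only member more than 2-fold apart in this way, and 1.89% of the 3282 genes were. Deposited intervals of gene TPM did not overlap between libraries in 43 members, against 73.8% of the 3282 genes. These intervals were not adjusted for the shift over all genes, so they include it. Whether a gap reflects fewer RNA copies per cell or fewer cells that express the gene cannot be told apart in bulk RNA.

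Few members belong to the pathway lists. Of splicing factors other than the families left out, 37 of those at 10 TPM or more had a decay transcript, and 2 were members, Tardbp and Prpf4b. Of RNA helicases, 3′ end processing and export genes, 1 of 9 was a member, Ddx5, and of translation factors 1 of 7, Eef1b2, which is also the 1 of 6 among coding hosts of snoRNAs. Of interferon-response genes 2 of 14 were members, Mx1 and Ifi35, and of lysosome and phagocyte genes 1 of 11, Ctsh. The background share is 5.52%, so counts this small say little about a list. No member came from the lists of decay factors and the exon junction complex (0 of 2), stress and polyamine genes known as decay targets (0 of 4), NF-kB, Toll-like receptor and cytokine genes (0 of 10), antigen presentation and proteasome (0 of 11), respiratory chain (0 of 7), actin cytoskeleton (0 of 7) and chromatin regulators (0 of 11). The lists are not complete, and members such as Oas1g, Gbp4, Gbp6, H2-Eb1, Ndufa3 and Smarca2 are in none of them. The median decay share of the list genes that have a decay transcript was highest in the stress and polyamine list, at 13.4%, and was 2.77% in the NF-kB, Toll-like receptor and cytokine list.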

How the data were processed

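The authors deposited 3 tables for each library, of genes and transcripts with RSEM column names and of transcripts with kallisto column names. The deposited readme files name mm10 and GENCODE M21, transcriptome alignments behind the RSEM tables and reads behind the kallisto table. Which aligner, tool versions and strand setting the authors used is not given in the sources used here. The tables hold, per the file headers, expected counts, which are estimates that need not be whole, TPM, a posterior mean TPM, the isoform percent of the deposited TPM (recomputed here from TPM), and bounds of a TPM interval, a deposited signal with a level that is not stated. A TPM can lie outside its own interval, as for Mx1. Overlapping and antisense genes can exchange reads: the leading decay transcript of 15 members shares exon bases with another gene, 8 of them with a gene of 1 TPM or more in both libraries.

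Transcript TPM was summed per gene and biotype, with the biotype from the transcript names, in Python 3.11.15 with numpy 2.4.6 and pandas 2.3.3. Exons, stop codons and strands came from the M21 annotation and bases from its transcript sequences. Expected counts were rounded and scaled by TMM in edgeR 4.0.16 (R 4.3.3) as an alternative (14052 genes whose mean count was 10 or more). Rows that name no gene were left out; they took 1.19% and 0.215% of expected counts in replicates 1 and 2. No test was made. Steps were tested on simulated data.

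The members, the gene lists and the alternatives were chosen with earlier results of these data known, and the role groups after the values were seen. Genes named with values by rule were the 10 members of highest TPM, the 10 of highest decay share, the 5 with the widest gap between libraries, the 5 with the widest gap between quantifications, those at the threshold and list members; other members were named to account for all 60. Alternatives were other floors and shares, expected counts, kallisto, the retained-intron ceiling, and each library alone.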

Additional observations from a re-analysis of the deposited data

How the results depend on the processing

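The number of members, 60, moved most with the share and level required: it was 111 at a share of 20%, 16 at 50%, 103 at a floor of 5 TPM and 29 at 20 TPM. The rule applied to kallisto values gave 36 genes, of which 20 are members, and to expected counts 66, of which 44 are members. It gave between 93 and 100 genes in 1 library alone. All 60 were among them in each, which follows from the rule and says nothing of stability. Without the retained-intron ceiling there were 64, and with it in both libraries 60. The median decay share of members, 45.6%, was 35.3% at a required share of 20% and 62.7% at 50%, and from 42.3% to 46.6% under the other settings. Each setting applied the required share to its own values and took the median of the genes that passed. The narrow range thus follows in part from the rule and says little of stability. Members whose highest transcript was a decay transcript numbered 35, against 25 by expected counts and 27 by kallisto. In 1 library alone they numbered 39 to 44, where fewer than 35 was not possible. Of the 29 members named by rule, the decay share moved beyond the spread between libraries in 20 by kallisto and in 18 by expected counts. Added after seeing the data, posterior mean TPM gave 58 genes, of which 54 are members, and leaving out Gm38394 gave 59. The median ratio between libraries relative to all genes was -0.01, against 0.04 by TMM-scaled counts and 0.02 by kallisto, on the log2 scale. No paired analysis was possible because the series holds 1 group. Depth limits the low members: in 11 of 60 the leading decay transcript had under 100 counts in a library.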
